A study of Mus musculus with 16 samples.

Results

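The BCL2 family genes Bcl2, Bcl2l1, Mcl1, Bax, Bak1, Bcl2l11, Bbc3, Pmaip1, Bid and Bik were taken by symbol from a GRCm38 gene annotation, 10 of 21938 protein-coding genes. Peaks of chromatin accessibility were assigned to a gene when they lay in a window that began 1000 bp before and ended 100 bp after any of its start sites (promoter peaks) or elsewhere in its body or within 10000 bp of it. After overlapping peaks of all lists were combined, 20 of 16566 regions belonged to these genes, 9 at promoters and 11 elsewhere. The peaks came from ATAC-seq, in which a transposase cuts accessible DNA, on splenic B cells of C57BL/6 mice. All 8 libraries carried 1 CD23-Cre allele, and 4 were from Brg1fl/+ and 4 from Brg1fl/fl mice, so the control group kept 1 intact Brg1 allele and was not wild type. Cre was driven by CD23, a gene of mature B cells. Brg1 (Smarca4) is an ATPase of the BAF chromatin remodelling complex. Cells were isolated with CD43 microbeads from adult mice and cultured with LPS at 10 µg/mL and IL-4 at 20 ng/mL, and 50000 cells went into each library. The sample labels gave 72 hours of culture and the series text 96 hours. Whether the 4 libraries of a genotype came from 4 mice was not given in the sources used here, so p-values measure the spread between these libraries, which may be technical. The extent of Brg1 deletion could not be read from peak lists.

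Proteins of the BCL2 family decide whether the outer mitochondrial membrane is opened, the step that releases cytochrome c and starts the caspase cascade. Anti-apoptotic members hold the pore-forming effectors in check, and BH3-only members relieve that restraint or activate the effectors directly. In B cells the balance between them sets survival after activation, in germinal centres and in lymphoma, where BCL2 itself is a classical translocation partner.

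Chromatin at 6 of the 10 promoters was called accessible in all 8 lists of both genotypes, those of the anti-apoptotic Bcl2, Bcl2l1 and Mcl1, the effector Bax, and the BH3-only genes Bcl2l11 and Bbc3. The BH3-only gene Bid was called in 7 lists and Pmaip1 in 4. Bak1, an effector, and Bik, a BH3-only gene, had no peak in any list. The 150 bases upstream of the gene start are shown for the promoters on which these results turn, with Bik as a promoter without a peak. The stretch from the Bcl2 intron is the 121 bases around the summit of a region accessible in 5 lists. All were read from the RefSeq GRCm38 genome, 5′ to 3′ on the strand of the gene, and the capitals mark the motifs searched for, listed after the sequences.
Bcl2, chr1:106714275-106714424, minus strand: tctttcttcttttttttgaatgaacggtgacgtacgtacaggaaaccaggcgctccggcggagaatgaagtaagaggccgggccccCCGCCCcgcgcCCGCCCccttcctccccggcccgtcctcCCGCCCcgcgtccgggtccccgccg
Mcl1, chr3:95658638-95658787, plus strand: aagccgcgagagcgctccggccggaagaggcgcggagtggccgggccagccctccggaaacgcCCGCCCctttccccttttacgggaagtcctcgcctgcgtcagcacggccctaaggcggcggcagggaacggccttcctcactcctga
Bax, chr7:45466899-45467048, minus strand: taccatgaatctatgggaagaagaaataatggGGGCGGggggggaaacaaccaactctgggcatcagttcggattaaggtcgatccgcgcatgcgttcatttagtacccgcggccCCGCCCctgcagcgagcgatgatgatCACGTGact
Bcl2l11, chr2:128125888-128126037, plus strand: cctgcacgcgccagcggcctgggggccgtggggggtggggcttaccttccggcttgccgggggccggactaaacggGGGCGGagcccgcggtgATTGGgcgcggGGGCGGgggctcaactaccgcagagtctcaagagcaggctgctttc
Bid, chr6:120916854-120917003, minus strand: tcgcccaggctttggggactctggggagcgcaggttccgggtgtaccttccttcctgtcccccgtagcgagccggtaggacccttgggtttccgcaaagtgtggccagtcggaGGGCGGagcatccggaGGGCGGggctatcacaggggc
Bik, chr15:83526712-83526861, plus strand: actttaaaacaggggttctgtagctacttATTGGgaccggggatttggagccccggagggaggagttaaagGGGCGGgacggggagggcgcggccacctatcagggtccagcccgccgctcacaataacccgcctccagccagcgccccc
Bcl2 intron, chr1:106561277-106561397, minus strand: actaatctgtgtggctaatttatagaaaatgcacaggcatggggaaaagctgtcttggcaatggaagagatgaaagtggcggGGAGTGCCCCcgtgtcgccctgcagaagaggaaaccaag

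The motifs searched on both strands, which may overlap each other, were the CCAAT box, the E-box CACGTG, the cyclic AMP element TGACGTCA, the GC box GGGCGG, the forkhead motif TGTTTAC, the E2F motifs TTTCCCGC and TTTGGCGC, the ETS motif CCGGAAGT, the NRF1 motif, the AP-1 motif TGACTCA or TGAGTCA, the p53 half-site and the NF-kB site. They were counted in a window from 250 bp upstream to 50 bp downstream of a start of each protein-coding gene. The window was set at the most upstream coding start with a peak and, for genes with none, at the most upstream coding start. The GC box was in the window of 9 of the 10 genes, all but Bcl2l1, and in 45.8% of 21849 promoters, or 76.1% of the 4798 promoters detected in all 8 lists. The Bcl2 window held 7 matches of it and the Bbc3 window 5. The window of Bcl2l1 held the ETS motif, present in 5.03% of promoters. A p53 half-site was found at Bax and Pmaip1 and in 7.62% of promoters, and the NF-kB site at Bbc3 and in 4.99%. The E-box was at Bax (7.96% of promoters), the cyclic AMP element at Pmaip1 (2.54%), the forkhead motif at Bak1 and Bcl2l11 (2.96%), and the CCAAT box at Bcl2l11 and Bik (38.9%). The other motifs had no match at any of the 10 genes.

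The CpG content of the same windows, as the observed over the expected number of CpG dinucleotides, had a median of 0.852 in promoters detected in all 8 lists and 0.251 in promoters detected in none. Among the genes with a promoter peak it ran from 0.684 at Bid to 1.12 at Pmaip1, with 1.03 at Bcl2 and 1.07 at Bcl2l1. The promoters without a peak were unlike each other, since Bak1 stood at 0.116, in the CpG-poor range, and Bik at 0.835, near the median of accessible promoters. The bars for each gene show this split between Bak1 and the rest.

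**Figure D1:**
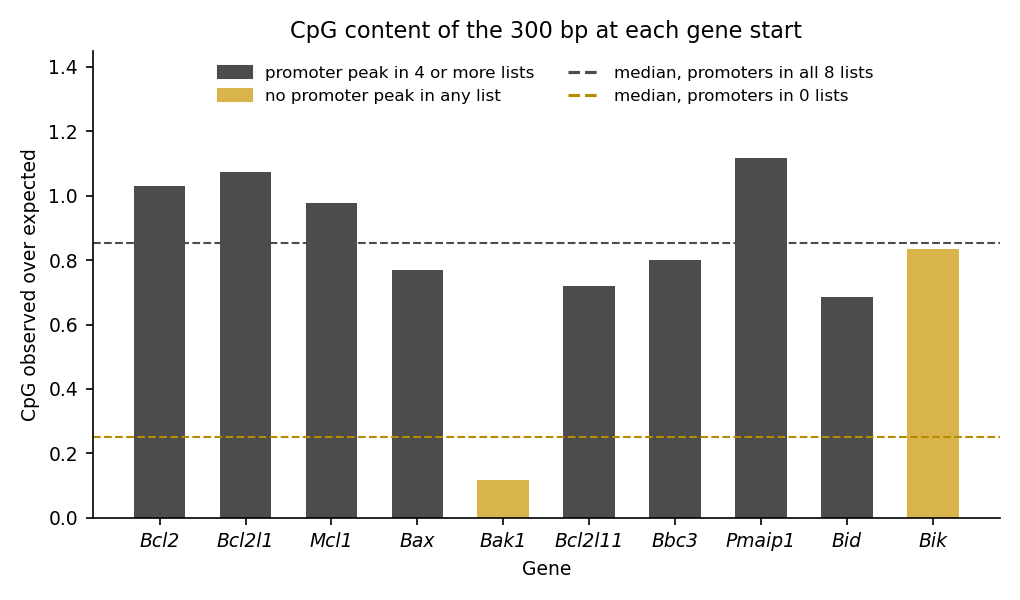
Observed over expected CpG ratio (vertical axis, no unit) in the 300 bp at the start of each of the 10 genes, dark bars with and yellow bars without a promoter peak, with dashed lines for the medians of promoters in all 8 lists (0.852) and in 0 lists (0.251). Bak1 at 0.116 lies under both lines, and Bik at 0.835 just under the upper line.

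The lists held 14614, 11283, 6372 and 7632 peaks in Brg1fl/+ replicates 1 to 4 and 9216, 6271, 8500 and 8605 in Brg1fl/fl replicates 1 to 4, so the number varied more within the control genotype than between genotypes. The median fold enrichment over local background (the height of a peak at its summit) was 9.54 ± 0.554 (SD, n = 4) in Brg1fl/+ and 8.38 ± 0.217 in Brg1fl/fl, lower in every Brg1fl/fl library (exact two-sided permutation p = 0.0286, the smallest that 4 against 4 libraries allow). A depth factor computed from fragments at shared summits ran from 0.586 in Brg1fl/+ replicate 3 to 1.93 in Brg1fl/+ replicate 1, and from 0.568 to 1.22 in Brg1fl/fl. Fragment counts at shared summits differed between the Brg1fl/fl libraries by less than sampling noise (dispersion 0.795 to 0.865, where 1 is noise alone) and between Brg1fl/+ libraries at 0.757 to 1.18. Between libraries of different genotypes the dispersion ran from 0.998 to 1.81. No pair stood apart as a repeat deposit of the same library, and each was counted as 1 sample. If all libraries of a genotype were splits of 1 pool, no pair would stand apart, so this check cannot show that they are independent. The names of the lists group replicates 1 and 2, and replicates 3 and 4, of each genotype, and if such a pair shared a mouse the fits below would count 4 samples where there were 2 (n = 2 per genotype), so their p-values would be too small. With each pair joined, exact tests of 2 against 2 could not pass 0.05, and the fit of summit folds over all regions called 32 lower and 47 higher in Brg1fl/fl and none of the 10 genes. Weaker regions had unequal chances of being called, and a region without a peak is one not detected at that depth. The faintest 5% of peaks in a list had at most 7 to 10 fragments at the summit. Among B cell marker genes, Ms4a1, Pax5 and Cd74 had a promoter peak in all 8 lists, Ebf1 in 6 and Cd79a in 1, and none was called at Cd79b or Cd22. Of the markers of other cells, the T cell gene Lck was called in 1 list, and none of the other 5 T cell, 5 myeloid and 4 erythroid genes was called in any.

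A promoter peak was called at 8, 8, 6 and 7 of the 10 genes in Brg1fl/+ replicates 1 to 4 and at 7, 7, 8 and 8 in Brg1fl/fl replicates 1 to 4. The genotypes overlapped, with means of 7.25 ± 0.957 (SD, n = 4) and 7.50 ± 0.577. In at least 1 list, 8 of the 10 genes had a promoter peak, where 47.8% of protein-coding genes did, and 6 of these 8 were in all 8 lists, where 46.1% of detected genes were. None of the 8 was detected in fewer Brg1fl/fl than Brg1fl/+ libraries (background 32.4%), and Bid was detected in more (background 11.5%). These background shares moved with list length. With each list cut to its best 6271 peaks, 7 of the 10 genes were detected, 0 of them in fewer and 0 in more Brg1fl/fl libraries, against 19.0% and 19.2% of 8004 genes. Without Brg1fl/+ replicate 1 the shares over all genes were 26.2% and 23.4%. With peaks limited to a −log10 q of 10 or more, 3 of the 8 were detected in fewer Brg1fl/fl libraries (Bcl2 in 3 against 2, Pmaip1 in 2 against 0 and Bid in 3 against 2) and none in more, against 41.8% and 9.07% of genes.

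**Figure D2:**
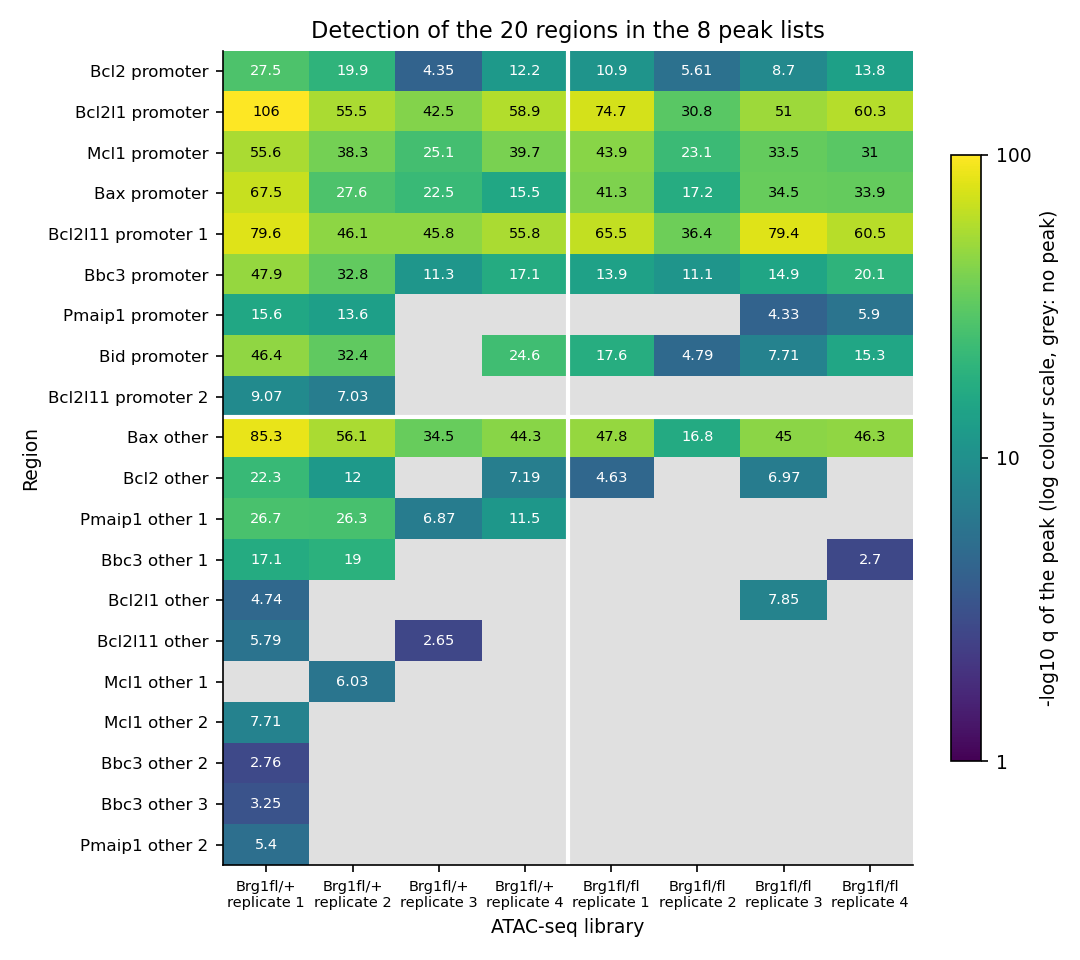
−log10 q of the peak in each of the 20 regions (rows, promoters above the white line) in each of the 8 lists (columns, Brg1fl/+ on the left), with grey where a list had no peak. The promoters of 6 genes and the region beyond Bax were called in every list, and most of the other regions were called in Brg1fl/+ replicate 1.

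The summit fold of the 7 regions found in all 8 lists was compared between genotypes with limma on log2 values, each library centred on its median. Over 4557 such regions 5.57% passed an adjusted p of 0.05 (Benjamini-Hochberg), 100 (2.19%) lower and 154 (3.38%) higher in Brg1fl/fl. None of the 7 regions of BCL2 family genes passed, and 1 had an unadjusted p under 0.05, against 23.0% of all regions. Their median log2 difference was 0.00, and 0.03 over all regions. Without the centring the split over all regions was 148 lower and 4 higher, with the median difference at −0.17. As deposited, the folds of 2 of the 7 regions, the Mcl1 promoter and the region beyond Bax, were lower in all Brg1fl/fl than in all Brg1fl/+ libraries, as were 12.3% of regions, and 0 were higher (background 0.966%). After centring 0 of the 7 ranges stood apart in either direction, where 4.67% of regions were lower and 8.60% higher.

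Bcl2, the founding anti-apoptotic member, had a promoter peak at chr1:106713981-106714600, with its summit between −118 and 113 bp from the gene start. The summit fold was 9.55, 9.80, 5.24 and 8.32 in Brg1fl/+ replicates 1 to 4. It was 6.68, 6.05, 6.14 and 7.59 in Brg1fl/fl replicates 1 to 4. The single low control library, replicate 3, fell below all Brg1fl/fl libraries, and the ranges overlapped. The centred log2 difference (Brg1fl/fl minus Brg1fl/+) was −0.07 (SE 0.16, limma adjusted p = 0.816), with a 95% interval from −0.40 to 0.25. It moved to −0.20 without Brg1fl/+ replicate 3 (adjusted p = 0.446), to −0.01 without Brg1fl/+ replicate 2 and to −0.28 without centring (adjusted p = 0.401), and passed in none of these fits. By rank it lay 40.7% to 89.3% from the top of its list, with means of 61.6% in Brg1fl/+ and 69.1% in Brg1fl/fl.

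A further Bcl2 region, chr1:106561119-106561629, lay in an intron 152900 bp from the gene start, and it is the region of the printed intron stretch, with 1 NF-kB site. It was called in 3 Brg1fl/+ libraries with folds of 10.1, 8.13 and 6.63 in replicates 1, 2 and 4. It was called in 2 Brg1fl/fl libraries with folds of 4.86 and 5.98 in replicates 1 and 3. Each Brg1fl/fl value was below each Brg1fl/+ value, but the 3 libraries without a peak included both of the shallowest (Brg1fl/+ replicate 3 and Brg1fl/fl replicate 2), and no test was made. As deposited, 12.3% of regions in all 8 lists and 16.3% of those in at least 7 were as separate in that direction. No share was taken over regions in 5 lists, where fewer values separate more easily. The fragments at the summit, divided by the depth factor of the library, were 16.1, 14.5 and 13.5 in the Brg1fl/+ and 9.81 and 12.8 in the Brg1fl/fl libraries.

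Bcl2l1, which encodes BCL-XL, had the highest summit fold of the 3 anti-apoptotic genes in all 8 libraries. Its promoter region, chr2:152830742-152831768, was centred in the first part of the gene at 143 bp from an annotated start, and the summit lay 319 to 357 bp downstream of the most upstream start. The fold was 14.7, 13.7, 15.3 and 15.8 in Brg1fl/+ and 14.0, 12.0, 12.5 and 14.1 in Brg1fl/fl replicates 1 to 4. The ranges overlapped, and the centred difference was 0.03 (SE 0.11, 95% interval −0.19 to 0.25, limma adjusted p = 0.899). In every list the peak was among the best 11.8% by rank. An intronic region 5856 bp from the start had a peak in Brg1fl/+ replicate 1 (fold 4.31) and Brg1fl/fl replicate 3 (fold 5.87) and in no other list.

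Mcl1, a short-lived anti-apoptotic protein on which B cells depend, had its promoter peak at chr3:95658427-95659625 with the summit between −114 and −38 bp from the gene start. The fold was 11.9, 12.6, 12.8 and 14.8 in Brg1fl/+ and 11.8, 10.9, 11.3 and 10.4 in Brg1fl/fl replicates 1 to 4. All Brg1fl/fl values were below all Brg1fl/+ values as deposited, by a small margin between the closest libraries. With the libraries centred the ranges overlapped and the difference was −0.02 (SE 0.12, 95% interval −0.27 to 0.23, limma adjusted p = 0.937). Regions 8073 and 6030 bp upstream were each called in 1 list, Brg1fl/+ replicate 2 (fold 5.76) and Brg1fl/+ replicate 1 (fold 5.65).

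**Figure D3:**
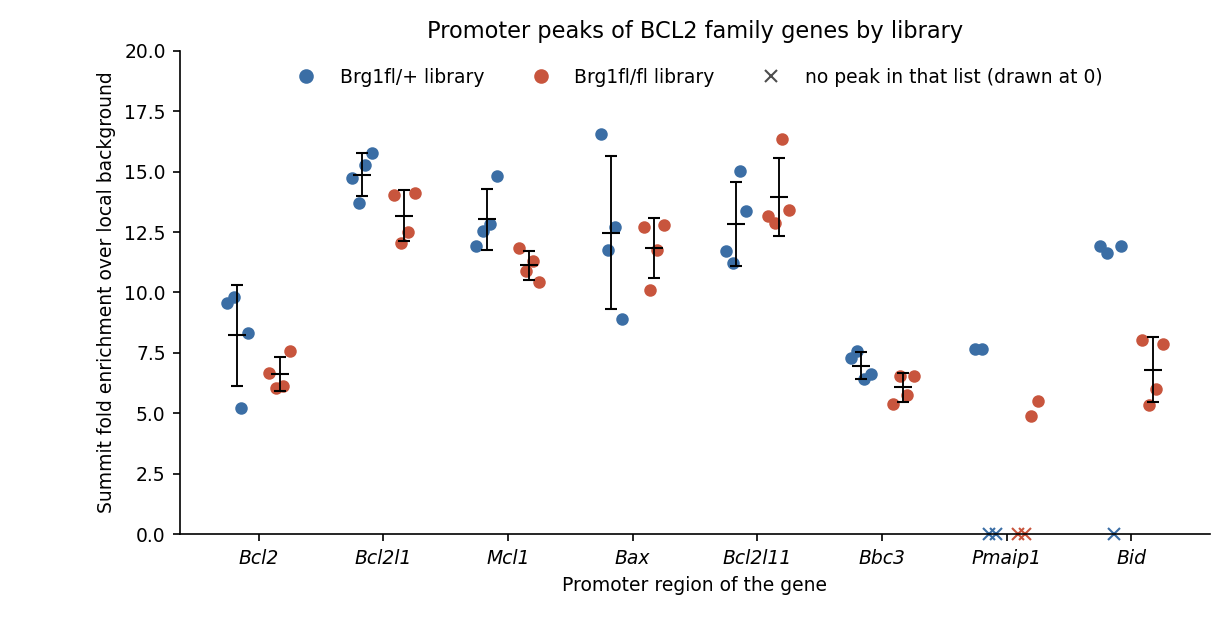
Summit fold enrichment over local background (vertical axis) of the promoter peak of 8 genes, 1 point per library with Brg1fl/+ in blue and Brg1fl/fl in red, crosses at 0 for lists with no peak, and bars for the mean ± SD where all 4 libraries had a peak. Points of both genotypes overlap at Bcl2, Bcl2l1, Bax, Bcl2l11 and Bbc3, and the 4 Brg1fl/fl points of Bid (5.33 to 8.03) lie below its 3 Brg1fl/+ points (11.7 to 11.9).

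Of the pore-forming effectors, Bax was accessible and Bak1 was not called. The Bax promoter peak, chr7:45466467-45467153, had its summit 32 to 41 bp downstream of the gene start in all 8 lists, the narrowest spread of summits among these promoters. The fold was 16.5, 11.8, 12.7 and 8.89 in Brg1fl/+ and 12.7, 10.1, 11.7 and 12.8 in Brg1fl/fl replicates 1 to 4. The Brg1fl/+ libraries spanned the whole Brg1fl/fl range, and the centred difference was 0.16 (SE 0.13, 95% interval −0.11 to 0.42, limma adjusted p = 0.491). It was 0.02 without Brg1fl/+ replicate 4, 0.25 without Brg1fl/+ replicate 1 or replicate 3, 0.36 with fragments at the summit (adjusted p = 0.145) and −0.05 without centring, and passed in none of these fits. The region 7068 bp from the Bax start, chr7:45459429-45460231, lay past the end of the gene at the promoters of Ftl1, the ferritin light chain gene, and Gm10252. Its fold was 14.9, 14.8, 14.4 and 14.9 in Brg1fl/+ and 12.9, 9.21, 13.5 and 13.4 in Brg1fl/fl replicates 1 to 4. All Brg1fl/fl values were lower as deposited, and the centred difference was −0.08 (SE 0.11, limma adjusted p = 0.675). Bak1 (chr17:27019810-27029009, minus strand) had no peak at a start, in its body or within 10000 bp in any of the 8 lists, and was then not detected at these depths.

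Among BH3-only genes, Bcl2l11, which encodes BIM, had the promoter with the largest centred difference of the 7 regions. The peak, chr2:128125670-128126184, had its summit between −223 and −111 bp from the gene start, mostly within the printed stretch. The fold was 11.7, 11.2, 15.0 and 13.4 in Brg1fl/+ and 13.2, 12.9, 16.4 and 13.4 in Brg1fl/fl replicates 1 to 4. The ranges overlapped, with the 2 lowest values in Brg1fl/+ replicates 1 and 2. The centred difference was 0.33 (SE 0.13, 95% interval 0.07 to 0.58), a ratio of 1.25, with an unadjusted p of 0.0136 and a limma adjusted p of 0.111. Over the alternatives tried it ran from 0.12 to 0.48 with adjusted p from 0.0152 to 0.578, and it passed only without Brg1fl/+ replicate 3. A second region at an internal start, 1500 bp downstream, was called only in Brg1fl/+ replicates 1 and 2 (fold 3.80 and 4.27), the libraries with the most peaks. An intronic region 26874 bp from the start was called in Brg1fl/+ replicates 1 and 3 (fold 5.30 and 4.54).

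Bbc3, which encodes the p53 target PUMA, was accessible at internal start sites, 848 to 2074 bp downstream of its most upstream start. The highest fold in the region was 7.29, 7.57, 6.41 and 6.63 in Brg1fl/+ and 5.40, 6.55, 5.76 and 6.56 in Brg1fl/fl replicates 1 to 4. The ranges overlapped, and the centred difference was 0.00 (SE 0.16, 95% interval −0.33 to 0.33, limma adjusted p = 0.997). The shape of the calls differed, however, a pattern singled out after its values were seen. All 4 Brg1fl/+ lists held 2 separate peaks there, with summits 1073 to 1106 bp and 1848 to 1877 bp from the start. Brg1fl/fl replicates 1, 3 and 4 held 1 continuous peak of 1093, 1107 and 1106 bp with its summit at 1846 to 1881 bp, and replicate 2 held only the downstream part, 286 bp wide. Of the 4557 shared regions, this was the only one (0.0219%) with more peaks in every Brg1fl/+ than in every Brg1fl/fl list, and 0 had the reverse. The shortest peak called ran from 195 to 204 bp in the Brg1fl/+ and from 231 to 243 bp in the Brg1fl/fl lists. Whether this bears on the joining of neighbouring peaks was not tested, and the reads between the summits were not analysed here. Of the regions at a distance from Bbc3, the one 8562 bp upstream was called in Brg1fl/+ replicates 1 and 2 (fold 5.49 and 6.94) and Brg1fl/fl replicate 4 (fold 3.41), and the regions 5704 bp downstream in an intron and 18147 bp from the start were called in Brg1fl/+ replicate 1 only (fold 2.37 and 4.35).

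Pmaip1, which encodes NOXA, the BH3-only partner of MCL1, had a promoter peak in Brg1fl/+ replicates 1 and 2 (fold 7.65 and 7.66) and Brg1fl/fl replicates 3 and 4 (fold 4.88 and 5.50). Both genotypes had 2 libraries with and 2 without a peak. With each list cut to its best 6271 peaks, no library had it. The same pattern of lists was shared by 73 other protein-coding genes, among them Trp53, Foxo1 and Tradd of the related genes.

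The region 5040 bp upstream of Pmaip1, intergenic and 375 bp wide, was the only one of the 20 with a peak in all Brg1fl/+ and no Brg1fl/fl list. The fold was 9.94, 11.4, 6.72 and 7.92 and the −log10 q 26.7, 26.3, 6.87 and 11.5 in Brg1fl/+ replicates 1 to 4. The control peaks were thus well above the threshold in 3 libraries and nearer to it in replicate 3. Over all 16566 regions 67 (0.404%) had this pattern. The fragments at the summit divided by the depth factor were 20.2, 27.4, 18.8 and 20.2 in Brg1fl/+ replicates 1 to 4. In the Brg1fl/fl lists, 39.7%, 18.5%, 36.3% and 36.3% of the called peaks lay below the lowest of these values. A call also depends on the local background. The lowest background of a list, not divided by the depth factor, was 0.846 ± 0.323 fragments (SD, n = 4) in Brg1fl/+ and 1.32 ± 0.382 in Brg1fl/fl (exact two-sided permutation p = 0.0857). Whether background or depth accounts for the missing calls was not tested. All Brg1fl/+ lists still held the peak with a −log10 q limit of 5 and with lists cut to the same number of peaks. The pattern was lost with a limit of 10, where Brg1fl/+ replicate 3 dropped out. Such cuts only remove peaks, so they could not test the absence from the Brg1fl/fl lists. Leaving out a library could not break the pattern, so it was no test either. Repeats covered 49.3% of the bases of the region. A region 12470 bp from the Pmaip1 start, past the gene, was called in Brg1fl/+ replicate 1 only (fold 5.06).

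Bid, whose protein links death receptors to the mitochondrial route after cleavage by caspase 8, had a promoter peak at chr6:120916496-120917158 in all 4 Brg1fl/fl and 3 Brg1fl/+ lists. The fold was 11.9, 11.7 and 11.9 in Brg1fl/+ replicates 1, 2 and 4, with no peak in replicate 3. It was 8.03, 5.33, 6.00 and 7.89 in Brg1fl/fl replicates 1 to 4. Where it was called, the Bid promoter was lower in every Brg1fl/fl than in every Brg1fl/+ library, with means of 6.81 ± 1.35 (SD, n = 4) and 11.8 ± 0.159 (SD, n = 3), and 16.3% of the 5903 regions found in at least 7 lists were as separate in that direction. The fragments at the summit divided by the depth factor were 32.7, 34.7 and 33.6 in Brg1fl/+ and 24.5, 19.4, 14.7 and 23.6 in Brg1fl/fl. In the limma fit over those 5903 regions, which drops the missing library, the difference was −0.54 (SE 0.17, 95% interval −0.88 to −0.20, adjusted p = 0.0454), a ratio of 0.688, where 6.73% of regions were called, 3.54% lower and 3.18% higher. With the missing library set to the 5th percentile of the folds in its list, which was added once the data had been seen, the difference was −0.27 (SE 0.23, adjusted p = 0.526). The call thus turned on Brg1fl/+ replicate 3, the Brg1fl/+ library with the lowest depth factor. The list pattern of Bid was shared by 479 other protein-coding genes, among them Bcl2l13, Fadd and Usp9x. The summits in Brg1fl/+ lay between −49 and −36 bp from the start, within the printed stretch and near its 2 GGGCGG matches. In Brg1fl/fl replicates 1 to 4 the summits lay at −40, 7, 56 and −33 bp, so those of replicates 2 and 3 were outside that stretch.

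**Figure D4:**
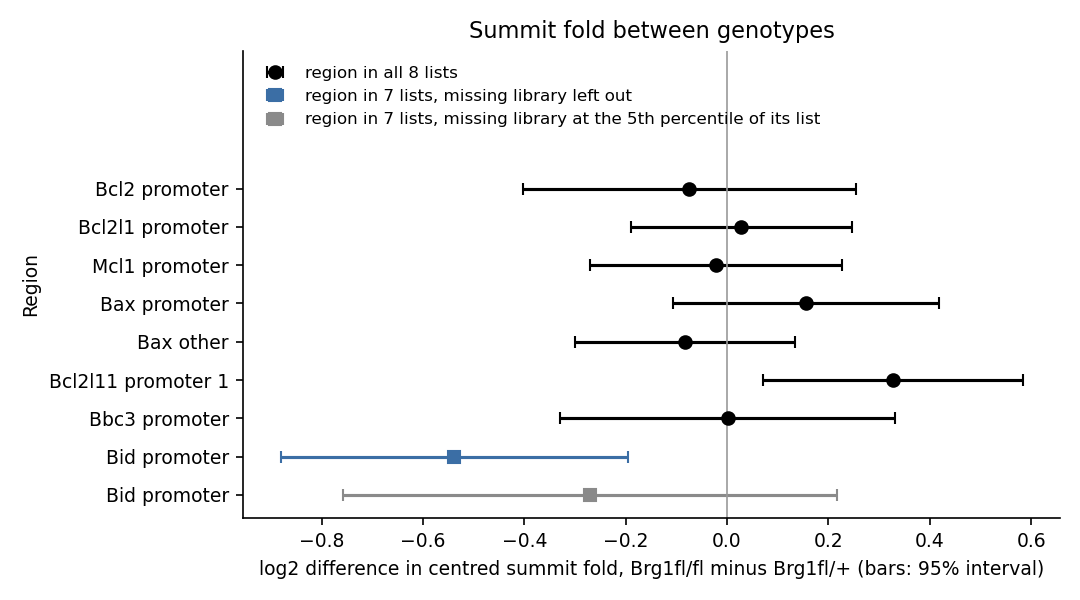
log2 difference in summit fold, Brg1fl/fl minus Brg1fl/+ with each library centred (horizontal axis), for the 7 regions in all 8 lists and for the Bid promoter with its missing library left out (blue) or set to the 5th percentile of its list (grey), with 95% intervals from limma. The intervals of 6 regions span 0, that of the Bcl2l11 promoter runs from 0.07 to 0.58, and the Bid interval excludes 0 only with the missing library left out.

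Bik (chr15:83526862-83544634, plus strand), a BH3-only gene with the GC box and a CCAAT match shown in its sequence, had no peak at a start, in its body or within 10000 bp in any list. It shared this with Bak1 alone among the 10 genes.

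Outside the genes' own promoters, the 11 regions near these genes varied most among the Brg1fl/+ libraries, and no test of the genotypes was made on them. They include the region beyond Bax, which lies at promoters of other genes. The lists held 10, 5, 3 and 3 of them in Brg1fl/+ replicates 1 to 4 and 2, 1, 3 and 2 in Brg1fl/fl replicates 1 to 4. That was 47.7% ± 30.0 (SD, n = 4) against 18.2% ± 7.42, with 27.3% in Brg1fl/+ replicates 3 and 4 equal to Brg1fl/fl replicate 3. Without the region beyond Bax, the 10 regions left stood at 42.5% against 10%, a difference of −32.5 points. The regions at no promoter used as background below hold none of its kind. Detected in fewer Brg1fl/fl than Brg1fl/+ lists were 9 of the 11, where 63.3% of 6240 regions at no promoter were, and 0 were in more, where 25.5% were. The difference was −29.5 percentage points for the 11 regions and −12.6 for the 6240, and 5 of the 11 were in a single list (background 52.5%), 4 of them in Brg1fl/+ replicate 1. Without that library the difference was −23.8 points over the 7 regions left, and −0.699 over all regions at no promoter. With each list cut to its best 6271 peaks it was −37.5 points over the 4 regions left near these genes, and 3.16 over 1700 regions at no promoter, where the sign had turned. The 7 and the 4 regions both include the one upstream of Pmaip1, with a peak in all Brg1fl/+ and no Brg1fl/fl list. In sets this small, that 1 region weighs heavily on the difference. Over all regions at no promoter the difference thus moved with Brg1fl/+ replicate 1 and with the lengths of the lists.

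**Figure D5:**
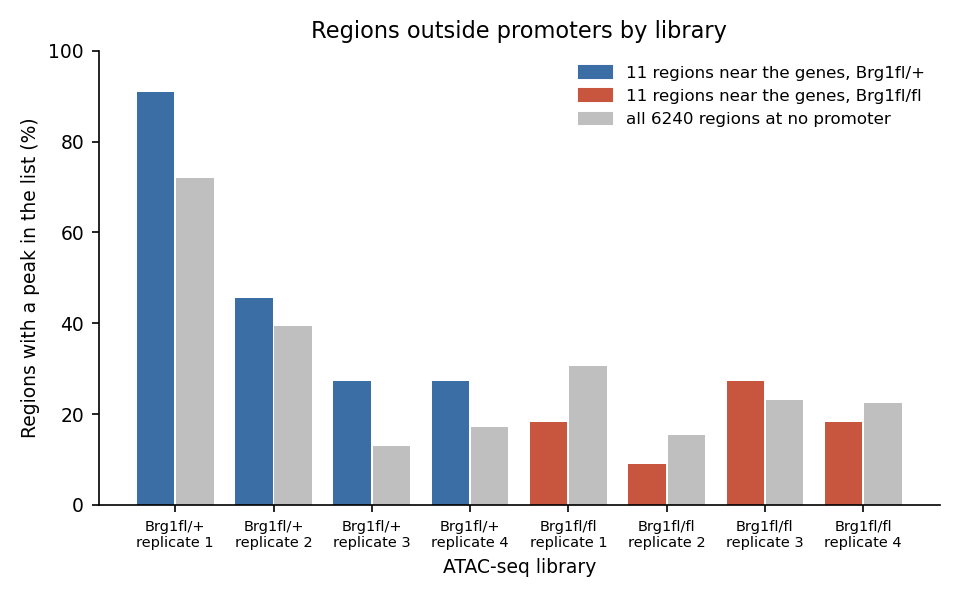
Share of regions with a peak in each list (vertical axis, %). Coloured bars are the 11 regions near the 10 genes outside their own promoters, including the region beyond Bax at promoters of other genes. Grey bars are all 6240 regions at no promoter. Brg1fl/+ replicate 1 stands above all other libraries in both, at 90.9% and 72.1%, and the Brg1fl/fl libraries run from 9.09% to 27.3% in the 11 regions.

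The rank, the width and the summit position of the promoter peak were also compared for each of 4825 genes with a promoter peak in all lists, by exact two-sided permutation tests over the libraries. The smallest possible raw p was 0.0286, so an adjusted p of 0.05 could be passed only if most of the 4825 genes reached it. No gene passed in any of the 3, and these tests could not have called a single gene. The 6 genes here did not separate the genotypes in rank, where 6.13% of genes did, in width (0.684%) or in summit position (7.09%).

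The wider pathway was taken as 55 further genes in 4 lists. A promoter peak was called at 9 of 15 other BCL2 family genes, 13 of 14 genes of the apoptosome and caspases, 10 of 11 inhibitors of apoptosis and death receptor genes, and 14 of 15 regulators of the family. Of these 46 genes, 25 were in all 8 lists, 14 (30.4%) were detected in fewer Brg1fl/fl than Brg1fl/+ libraries and 3 (6.52%) in more, against the 32.4% and 11.5% of all genes. With lists cut to the same number of peaks, 39 of these genes were detected, 8 (20.5%) in fewer and 7 (17.9%) in more Brg1fl/fl libraries, against 19.0% and 19.2% of all genes. As deposited the difference was of at least 2 libraries at 6 of the 46 genes (13.0%), all with fewer in Brg1fl/fl, where 10.6% of all detected genes had at least 2 fewer and 1.51% at least 2 more, so the 6 genes are close to the background. With lists of equal length it was so at 5 genes with fewer (12.8%, background 6.10%) and 1 with more (background 5.71%). The 5 were Fas, Casp6, Bcl2a1d, Pim2 and Xiap, and the 1 was Usp9x. Of the 6 genes as deposited, only Fas, Casp6 and Bcl2a1d were still detected there. The executioner caspase gene Casp6 and the death receptor gene Fas were each called in 4 Brg1fl/+ and 1 Brg1fl/fl library, and Dffa, the inhibitor of the caspase-activated nuclease, in 3 and 0. The BH3-only gene Bmf, the anti-apoptotic Bcl2a1d and the kinase gene Akt1 were each called in Brg1fl/+ replicates 1 and 2 only, the libraries with the most peaks. Bcl2a1d has near-identical copies, so its reads may be shared with them. In the limma fit 2 of 25 promoter regions of these lists were called, both higher in Brg1fl/fl (background 3.38%), and 0 lower. They belonged to Birc2, which encodes a ubiquitin ligase of TNF receptor signalling (0.34, SE 0.10, adjusted p = 0.0418), and Birc6, a large inhibitor of apoptosis (0.34, SE 0.09, adjusted p = 0.0302). Under 17 alternatives both stayed above 0 and passed in 5 and 7, with adjusted p up to 0.535 and 0.432. With libraries joined in pairs neither passed (adjusted p = 0.102 and 0.0989).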

How the data were processed

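ATAC-seq peaks of 8 mouse B cell libraries were used; 8 RNA libraries were not analysed here. Per the labels and methods, the authors used Bowtie2 for alignment to mm10 and MACS2 for peaks, with 1 deposited list per library; versions and options are not given in the sources used here. The deposited lists give a fold enrichment (a linear ratio), −log10 p and −log10 q values (the p-value and q-value of each peak), a score and a summit. The score was not used. Each summit's fragments were taken as the whole number that, with the fold, gave the −log10 p closest to the deposited one. That −log10 p lay within 0.002 of the deposited value for over 99.9% of peaks. Peaks sharing 1 bp were combined across lists. log2 summit folds, centred per library, were fitted with limma 3.58.1 (R 4.3.3; trend, no replicate block) over regions in all 8 lists, since the lists hold no read counts. Tested on simulated data, the fit recovered 97.5% of 200 planted log2 differences of 1 among 4557 regions. That size exceeds every fitted difference given here for a gene, and smaller ones were not planted. The simulated libraries varied independently of each other. Other values used Python 3.11.15, scipy 1.17.1 and exact permutation tests. PCR duplicates and counting error were not modelled beyond the spread of libraries. The members, the gene lists and the tests were chosen with earlier results of these data known. The text names all members and their regions, list genes whose promoter detection differed by at least 2 libraries or passed the fit, and list genes sharing the pattern of a member not in all lists. Alternatives changed the threshold on q, the centring, the promoter and flank windows, the regions kept, the unit and the libraries.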

Additional observations from a re-analysis of the deposited data

Results flagged for a closer look

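The Bcl2 promoter in Brg1fl/+ replicate 3 stood apart from the other Brg1fl/+ libraries, with a centred log2 fold of −0.99 where the other 3 ran from −0.53 to −0.43. The gap was 0.835 of the range of the group, over the 95% critical value of Dixon's test for 4 samples. It was the only one of 18 groups of 4 values examined, and chance flags about 1 in 20.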

How the results depend on the processing

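The fit tested 7 regions of these genes, 6 with −log10 q limits of 5 and 10 (where the Bcl2 promoter was not in all lists) and 8 in both fits on at least 7 lists. It called 0 of those tested except without Brg1fl/+ replicate 3 (1, the Bcl2l11 promoter at 0.48) and with regions in at least 7 lists (1, the Bid promoter, which is not one of the 7). Against 100 regions lower and 154 higher in Brg1fl/fl as reported, lower and higher regions numbered 61 and 73 without limma's trend, 161 and 416 with fragments at the summit, 148 and 4 without centring, 32 and 47 with libraries joined in pairs, 209 and 188 with regions in at least 7 lists, 27 and 30 with the missing value of such regions at the 5th percentile of its list, 88 and 97 with a −log10 q limit of 10, and from 27 to 106 and 43 to 219 with each library left out. With the replicate block they numbered 86 and 119 and no region of a member changed its call. Same-numbered libraries of the genotypes did not deviate together (correlations from −0.09 to 0.01), so the number was not taken as a pairing. The sign of 4 small differences turned. Mcl1 stood at 0.12 with fragments and from −0.114 to 0.053 with libraries left out. Bcl2l1 stood at −0.18 without centring, −0.0071 with peaks of −log10 q from 10 up and from −0.048 to 0.12 with libraries left out, and Bax at −0.048 without centring. Bbc3 stood at −0.30 with fragments, −0.20 without centring, −1.08e-05 in both fits on at least 7 lists, −0.0057 and −0.034 with −log10 q limits of 5 and 10, and from −0.10 to 0.081 with libraries left out. None of these passed the test. In the counts of member promoters, those in fewer Brg1fl/fl libraries went from 0 to 1 and 3 with −log10 q limits of 5 and 10, and from 0 to 1 with libraries left out. Those in more went from 1 to 0 at that stricter limit of 10 and with lists of equal length, to 2 with the peak centre in the window, and from 0 to 2 with libraries left out. The mean number per library was lower by 1 (−1) in Brg1fl/fl at that limit. At that limit 0 regions near these genes outside their own promoters had a peak in all Brg1fl/+ and no Brg1fl/fl list. The causes of these changes were not tested. Depth limits the calls: a peak absent from Brg1fl/+ replicate 3 or Brg1fl/fl replicate 2, the shallowest libraries, may be one not detected.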
